A study of Homo sapiens with 12 samples.

Results

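SLC7A11, GPX1, GPX4, GPX8, GCLC, GCLM, GSS, GSR, SAT1 and TFRC are genes of cystine import, glutathione and ferroptosis. These 10 genes were listed by name, with earlier results of these data known, by a rule that itself uses no measured value. They were found through the array's probe annotation, and each was measured by at least 1 probe set paired with that gene alone. All 10 were among the 13673 genes tested, and together they had 25 probe sets, of which 23 passed a filter on dim signal. Not passing were 240686_x_at and 237214_at of TFRC.

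The cells were U2OS, a human osteosarcoma line that carries wild-type p53, and transcripts were measured on Affymetrix U133 Plus 2.0 arrays, with 12 arrays in 4 groups of 3. Doxorubicin breaks DNA by poisoning topoisomerase II and was given at 0.6 µg/ml for 24 hours, and its control was cells without treatment. Nutlin-3 keeps MDM2 from binding p53 without damaging DNA and was given at 10 µM for 24 hours, and its control was cells in 0.1% DMSO for 24 hours. The DMSO content of the nutlin-3 samples is not stated, so whether the vehicle was matched is not known. The study asked how the p53 response differs between these agents. Whether the 3 arrays of a group came from separate cultures is not stated, and a p-value here reflects no more than the spread among these arrays, possibly a technical one.

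Cystine enters cells through system xc-, whose transporter subunit is SLC7A11, and is reduced to cysteine. Glutamate-cysteine ligase, with catalytic subunit GCLC and modifier subunit GCLM, and glutathione synthetase, GSS, build glutathione from it. Glutathione peroxidases use glutathione to reduce peroxides, and glutathione reductase, GSR, restores it. Ferroptosis is an iron-dependent death by lipid peroxidation, which GPX4 restrains. TFRC brings in iron, and SAT1 starts polyamine breakdown. SLC7A11 is known as a gene repressed by p53, and SAT1 as a gene induced by it and able to sensitise cells to ferroptosis.

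Promoter sequences are shown for GPX1, SAT1 and GPX8, the 3 genes with the widest changes among those with a promoter in the tables used here. Each runs 5′ to 3′ on the gene's strand over the 250 bases before the start of transcription, from RefSeq on build GRCh38.p14. The GPX1 window is chr3:49358354-49358603 on the minus strand, the SAT1 window is chrX:23782923-23783172 on the plus strand, and the GPX8 window is chr5:55159921-55160170 on the plus strand. Capitals mark a match to a p53 half-site in GPX1 and to the ATF4 element in GPX8, and SAT1 has none.
GPX1: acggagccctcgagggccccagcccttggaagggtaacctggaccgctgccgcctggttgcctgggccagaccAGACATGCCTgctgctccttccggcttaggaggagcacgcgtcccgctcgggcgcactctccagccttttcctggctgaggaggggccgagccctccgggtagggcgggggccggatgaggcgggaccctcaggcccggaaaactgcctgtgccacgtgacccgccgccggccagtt
SAT1: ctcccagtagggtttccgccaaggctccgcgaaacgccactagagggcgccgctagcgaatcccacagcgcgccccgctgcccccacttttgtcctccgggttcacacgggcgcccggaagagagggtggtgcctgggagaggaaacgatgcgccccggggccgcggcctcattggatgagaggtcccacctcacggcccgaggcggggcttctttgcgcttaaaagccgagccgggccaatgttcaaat
GPX8: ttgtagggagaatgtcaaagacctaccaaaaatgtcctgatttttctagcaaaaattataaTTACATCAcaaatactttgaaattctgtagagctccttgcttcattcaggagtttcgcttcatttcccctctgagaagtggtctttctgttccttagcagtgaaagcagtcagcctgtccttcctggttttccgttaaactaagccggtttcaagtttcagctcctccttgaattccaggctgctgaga

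Windows of 250 bases before to 50 after a start were found for 7 of the 10 genes, and none for SLC7A11, GSS and GSR. Both strands were searched for the core of the antioxidant response element TGACNNNGC, for the C/EBP-ATF element TGATGNAA bound by ATF4, and for the p53 half-site by its consensus. These letters occurred in 13.3%, 3.62% and 6.63% of 35116 such windows. GCLM held the antioxidant core, with its first base 34 bases before the start. The GPX8 match, read as TTACATCA, began 189 bases before the start, and the GPX1 match, AGACATGCCT, began 177 bases before it. GCLC held a half-site, GGGCATGCTC, that began at base 30 after the start. A match describes the letters and shows no binding.

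A signal here is the deposited MAS5 value on a linear scale in arbitrary units. A change is a difference of log2(signal + 16), with a standard error (SE) from limma's fit over all genes. A gene was called where its Benjamini-Hochberg adjusted p was under 0.05. CDKN1A and MDM2, targets of p53, served as a check of the response. CDKN1A rose by 2.47 with doxorubicin and by 2.30 with nutlin-3, and MDM2 rose by 1.42 and 2.14.

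Within a group, arrays correlated at 0.980 to 0.991 over the genes tested. The ratio of the 3' to the 5' signal of ACTB, a sign of RNA integrity, was 2.48 to 3.59 on the doxorubicin arrays, against 1.44 to 1.58 without treatment, 1.25 to 1.30 in DMSO and 1.28 to 1.33 with nutlin-3. That of GAPDH lay between 0.930 and 1.21 on all 12 arrays. The median change of all genes with doxorubicin was 0.08, and it became -0.10 after median centring of the arrays. Of 9 osteoblast and mesenchyme markers 5 passed the filter, with a summed signal of 73249 to 91518 in all groups, while COL1A2, ALPL and SP7 were under it. COL1A1, VIM and SPARC made up most of that sum, which says little of the dimmer RUNX2 and SPP1. RUNX2 changed by -0.75 with doxorubicin and -0.38 with nutlin-3, both called. SPP1 changed by -0.77 with doxorubicin, called, and 0.07 with nutlin-3, not called. COL1A1 was called higher with doxorubicin, at 0.26. Of 5 leukocyte markers 2 passed, CD3E and LAPTM5, and their sum was 111 to 181 without treatment, 435 to 677 with doxorubicin, 77.7 to 139 in DMSO and 285 to 372 with nutlin-3. PTPRC, CD14, KRT5, VWF and CDH5 were under the filter. The summed signal of 3 epithelial markers, CDH1, EPCAM and KRT14, was 2005 to 2169 without treatment, 1401 to 1713 with doxorubicin, 1069 to 1247 in DMSO and 780 to 853 with nutlin-3. EPCAM made up most of that sum. KRT14 had mean signals of 372 without treatment, 109 with doxorubicin, 97.2 in DMSO and 90.8 with nutlin-3. In DMSO against untreated, KRT14 changed by -1.79 and EPCAM by -0.68, both called, and CDH1 was not called. The single endothelial marker past the filter, PECAM1, was at 140 to 230 without treatment, 184 to 214 with doxorubicin, 90.2 to 113 in DMSO and 86.4 to 157 with nutlin-3. The part of these markers and of the ACTB ratio in the changes with treatment was not tested.

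With doxorubicin, GPX1, GCLC and SAT1 rose and SLC7A11, GPX8 and TFRC fell, while GPX4, GCLM, GSS and GSR were not called. The 3 of 10 called higher stood beside 30.1% of all genes called higher, and the 3 called lower beside 25.6%, so the count by itself is near the background. The median change of the 10 genes was -0.12, against 0.08 for all genes. With nutlin-3, GPX1, SAT1 and GSS rose and SLC7A11, GPX8, GCLC and TFRC fell. That is 3 called higher, beside 12.5% of all genes, and 4 called lower, beside 13.9%, with a median change of -0.02 against 0.01 for all genes.

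**Figure D1:**
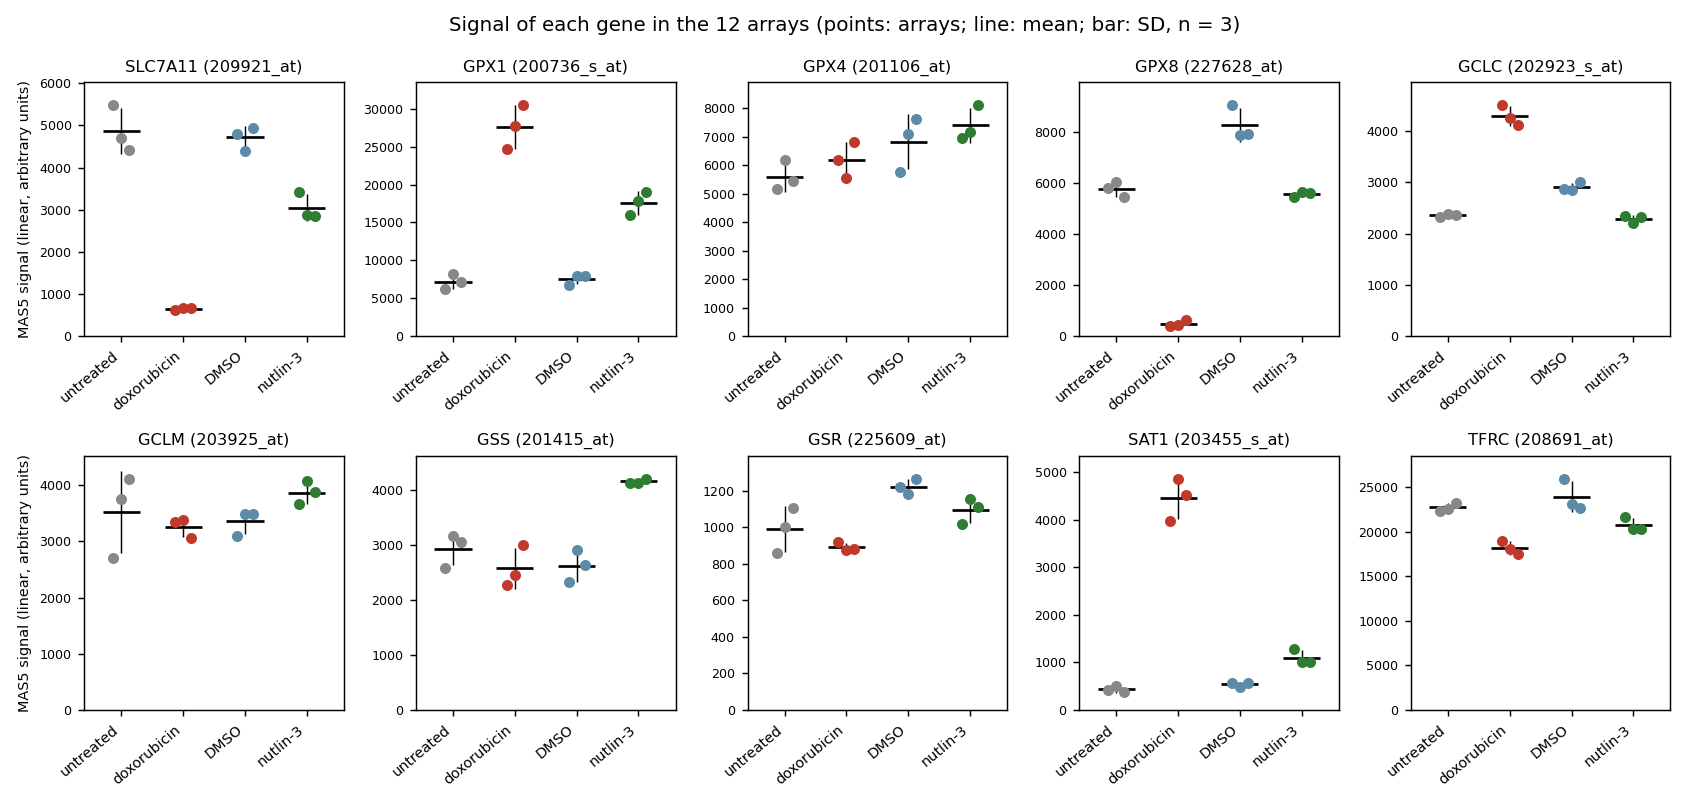
MAS5 signal (linear, arbitrary units, axes from 0) of each of the 10 genes on the 12 arrays, by group. Points are arrays, the horizontal line is the mean and the vertical bar the SD (n = 3). SLC7A11 and GPX8 are near the bottom of their axes with doxorubicin, SAT1 and GPX1 are highest there, and GSS is highest with nutlin-3.

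SLC7A11, the cystine transporter, fell steeply with doxorubicin and mildly with nutlin-3. Its representing probe set, 209921_at, read 5473, 4700.4 and 4416 without treatment and 617, 679 and 665 with doxorubicin. It read 4792, 4402 and 4946 in DMSO and 3414, 2871 and 2859 with nutlin-3. Every doxorubicin array lay far under every array of the other groups, and the nutlin-3 arrays lay between them and both controls with no overlap. The mean fell from 4863 ± 547 to 654 ± 32.7 (SD, n = 3) with doxorubicin, a change of -2.86 (SE 0.10, adjusted p = 7.1e-13), or 7.26 times on the scale of signal + 16. With nutlin-3 the change was -0.63 (SE 0.10, adjusted p = 1.0e-04), from 4713 ± 281 to 3048 ± 317, or 1.55 times. In bulk RNA, fewer cells with a transcript and less of it per cell cannot be told apart. The change with doxorubicin minus that with nutlin-3 was -2.23 (SE 0.14, adjusted p = 5.7e-09).

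The 2 further probe sets of SLC7A11 went the same way with doxorubicin. The probe set 217678_at read 5110, 4356 and 4771 without treatment and 513, 467 and 610.1 with doxorubicin, a change of -3.13. The dimmer 207528_s_at read 607, 448 and 537 without treatment and 127, 92.1 and 85.8 with doxorubicin, a change of -2.22. With nutlin-3, 217678_at changed by -0.42 (adjusted p = 0.016 in the fit over probe sets) and 207528_s_at by -0.30, which was not called (adjusted p = 0.24). The call with doxorubicin was made on all 3 probe sets, and the call with nutlin-3 on 2 of them. The partner chain of the transporter, SLC3A2, was not called with either agent, at -0.18 with doxorubicin (SE 0.11, adjusted p = 0.18) and -0.14 with nutlin-3 (adjusted p = 0.40). It was called lower with doxorubicin after median centring (-0.36, adjusted p = 0.019) and against the DMSO arrays (-0.43, adjusted p = 0.0030).

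GCLC, the catalytic subunit of the ligase that starts glutathione synthesis, rose with doxorubicin and fell slightly with nutlin-3. Probe set 202923_s_at read 2315, 2382 and 2371 without treatment and 4498, 4245 and 4112 with doxorubicin, a change of 0.86 (SE 0.07, adjusted p = 3.5e-08), or 1.81 times. It read 2867, 2855 and 3007 in DMSO and 2334, 2214 and 2318 with nutlin-3, a change of -0.34 (SE 0.07, adjusted p = 0.0018). Neither pair of groups overlapped, but the nutlin-3 arrays lay at the level of the untreated ones. The responses differed by 1.20 (SE 0.10, adjusted p = 1.8e-07), each taken against its own control. Of its other probe sets, 202922_at changed by 0.69 and -0.34, both called, and 1555330_at by 0.82, called, and -0.23, not called (adjusted p = 0.57). DMSO itself differed from no treatment by 0.30 on 202923_s_at (SE 0.07, adjusted p = 0.011), close in size to the fall with nutlin-3, and the rise with doxorubicin was 0.56 against the DMSO arrays, where it was still called.

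GCLM, the modifier subunit, was not called with either agent. Probe set 203925_at read 2709, 3763 and 4110.5 without treatment, 3354, 3390 and 3056 with doxorubicin, 3093, 3487 and 3490.3 in DMSO and 3668, 4070.2 and 3875 with nutlin-3. Untreated array 1 was the lowest of all 12, and the untreated and doxorubicin groups overlapped. The nutlin-3 arrays lay above the DMSO arrays without overlap. The change was -0.09 with doxorubicin (95% interval -0.34 to 0.16, adjusted p = 0.55) and 0.21 with nutlin-3 (-0.05 to 0.46, adjusted p = 0.24). Without untreated array 1 the change with doxorubicin became -0.27 (adjusted p = 0.023) and the difference between the agents -0.47 (adjusted p = 0.0070), against -0.30 with it (adjusted p = 0.18). The probe sets 236140_at and 234986_at gave -0.09 and 0.28 with doxorubicin and 0.41 and 0.20 with nutlin-3, none called.

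GSS, which adds glycine to finish glutathione, rose with nutlin-3. Probe set 201415_at read 2326, 2908 and 2647 in DMSO and 4141, 4139.9 and 4202 with nutlin-3, a change of 0.67 (SE 0.11, adjusted p = 1.8e-04). The nutlin-3 arrays lay above all 9 others. With doxorubicin it read 2282, 2450.3 and 2995, against 2589, 3159.9 and 3059.7 without treatment, overlapping, with a change of -0.19 that was not called (95% interval -0.42 to 0.04, adjusted p = 0.15). Leaving out doxorubicin array 3, the highest of its group, gave -0.31 (adjusted p = 0.025). The difference between the agents was -0.86 (SE 0.15, adjusted p = 3.3e-04). The second probe set, 211630_s_at, gave 0.57 with nutlin-3 (adjusted p = 8.1e-04) and -0.25 with doxorubicin (adjusted p = 0.056).

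GSR, which returns oxidised glutathione to its reduced form, gave an answer with doxorubicin that depended on the probe set. On the brighter 225609_at it read 859, 1003 and 1107 without treatment and 917, 877 and 881 with doxorubicin, overlapping, a change of -0.14 (95% interval -0.35 to 0.07, adjusted p = 0.24). On 205770_at it read 757, 787 and 734 without treatment and 498, 503 and 531 with doxorubicin, without overlap, a change of -0.56 (SE 0.10, adjusted p = 1.8e-04 in the fit over probe sets). With the mean of both probe sets the gene was called, at -0.35 (adjusted p = 0.0011), and 225609_at was called at -0.45 against the DMSO arrays (adjusted p = 9.9e-04). With nutlin-3 neither probe set was called, at -0.16 (adjusted p = 0.28) and -0.21 (adjusted p = 0.16 in the fit over probe sets). On both, the nutlin-3 arrays nevertheless lay under the DMSO arrays without overlap.

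GPX1, the abundant cytosolic selenoenzyme that reduces hydrogen peroxide, rose with both agents. Its single probe set, 200736_s_at, read 6262, 8162 and 7129 without treatment and 24681, 27686 and 30453 with doxorubicin. It read 6746, 7955 and 7963 in DMSO and 15948, 17836 and 19090.2 with nutlin-3. The treated arrays lay above all 6 control arrays, and all 3 doxorubicin arrays lay above the nutlin-3 arrays. The change was 1.94 with doxorubicin (SE 0.11, adjusted p = 2.0e-10), or 3.84 times, and 1.22 with nutlin-3 (SE 0.11, adjusted p = 2.1e-07), or 2.33 times. The responses differed by 0.72 (SE 0.15, adjusted p = 0.0012), and by 0.57 with each array centred on its median (adjusted p = 0.048). The suffix _s_at marks probes that can match several transcripts, and no second probe set of GPX1 was there to compare.

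GPX4, the selenoenzyme that reduces lipid hydroperoxides in membranes and is the central brake on ferroptosis, was not called with either agent. Its probe set, 201106_at, read 5174, 6176 and 5435 without treatment and 6181, 5553 and 6825 with doxorubicin. It read 5755, 7107 and 7611 in DMSO and 6946, 7180.5 and 8103 with nutlin-3. The treated arrays overlapped with their controls in both comparisons. The changes were 0.14 with doxorubicin (95% interval -0.09 to 0.37, adjusted p = 0.28) and 0.13 with nutlin-3 (-0.11 to 0.36, adjusted p = 0.45). The direction with doxorubicin was not settled, since it was -0.03 with each array centred on its median and -0.14 against the DMSO arrays.

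GPX8, a peroxidase of the endoplasmic reticulum membrane that carries cysteine in place of selenocysteine, fell with both agents, and its fall with doxorubicin had the largest size of change among the 10 genes. Probe set 227628_at read 5782, 6030.5 and 5426 without treatment and 402, 453 and 627 with doxorubicin, a change of -3.52 (SE 0.12, adjusted p = 7.1e-13), or 11.5 times. It read 9023, 7864 and 7913 in DMSO and 5445, 5625 and 5598 with nutlin-3, a change of -0.57 (SE 0.12, adjusted p = 0.0018), or 1.48 times. The nutlin-3 arrays lay under the DMSO arrays but at the level of the untreated ones, and DMSO arrays were above untreated arrays by 0.52 (SE 0.12, adjusted p = 0.0086). The responses differed by -2.95 (SE 0.17, adjusted p = 2.7e-09).

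The second probe set of GPX8 gave the same picture. On 228141_at the signal was 2174, 2145 and 2349.8 without treatment, 177, 189 and 161 with doxorubicin, 3475, 2952 and 2906 in DMSO and 1555, 1712 and 1530.1 with nutlin-3. The change was -3.55 with doxorubicin and -0.95 with nutlin-3, both called, and here the nutlin-3 arrays also lay under the untreated ones. The 3 peroxidases among the 10 genes therefore gave 3 outcomes with doxorubicin, with GPX1 higher, GPX4 not called and GPX8 lower.

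SAT1, the acetyltransferase that starts the breakdown of spermidine and spermine, rose with both agents. Probe set 203455_s_at read 410.5, 505 and 376 without treatment and 3984, 4857 and 4527 with doxorubicin, a change of 3.33 (SE 0.13, adjusted p = 2.5e-12), or 10.1 times. It read 560, 479 and 573 in DMSO and 1277, 1013 and 1007 with nutlin-3, a change of 1.01 (SE 0.13, adjusted p = 1.2e-05), or 2.01 times. Treated and control arrays did not overlap with either agent, and all doxorubicin arrays exceeded the nutlin-3 arrays. The responses differed by 2.32 (SE 0.18, adjusted p = 6.3e-08). The probe set 210592_s_at gave 3.36 and 1.19 and the dim 213988_s_at gave 3.99 and 1.83, all called. Each of these SAT1 probe sets carries the suffix _s_at, and none paired with SAT1 alone and free of it was there to compare. A further probe set annotated to SAT1 together with ZSWIM8 was left out because it names 2 genes.

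TFRC, the transferrin receptor, fell with doxorubicin. Probe set 208691_at read 22356, 22526 and 23255 without treatment and 18994, 18032 and 17454 with doxorubicin, without overlap, a change of -0.32 (SE 0.07, adjusted p = 0.0011), or 1.25 times. It read 25881, 23097 and 22675 in DMSO and 21624, 20279.8 and 20237.8 with nutlin-3, also without overlap, a change of -0.20 (SE 0.07) that was called with little to spare (adjusted p = 0.048). The call with nutlin-3 was lost in 14 of 23 alternatives. Without DMSO array 1, the highest of the 12, it was -0.14 (adjusted p = 0.22), and leaving out any 1 of 7 other arrays also ended the call, with adjusted p from 0.053 to 0.13.

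The probe set 207332_s_at of TFRC gave -0.51 with doxorubicin and -0.29 with nutlin-3, both called, and 237215_s_at gave -0.79, called, and -0.23, not called. The responses to the agents were not shown to differ, at -0.12 (95% interval -0.34 to 0.10, adjusted p = 0.38), and that difference was 0.10 after quantile normalization. With the mean of its probe sets the change with doxorubicin was -0.54, and after quantile normalization that with nutlin-3 was -0.34. The 2 dim probe sets under the filter had mean signals of 9.21 to 61.6 over the groups.

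**Figure D2:**
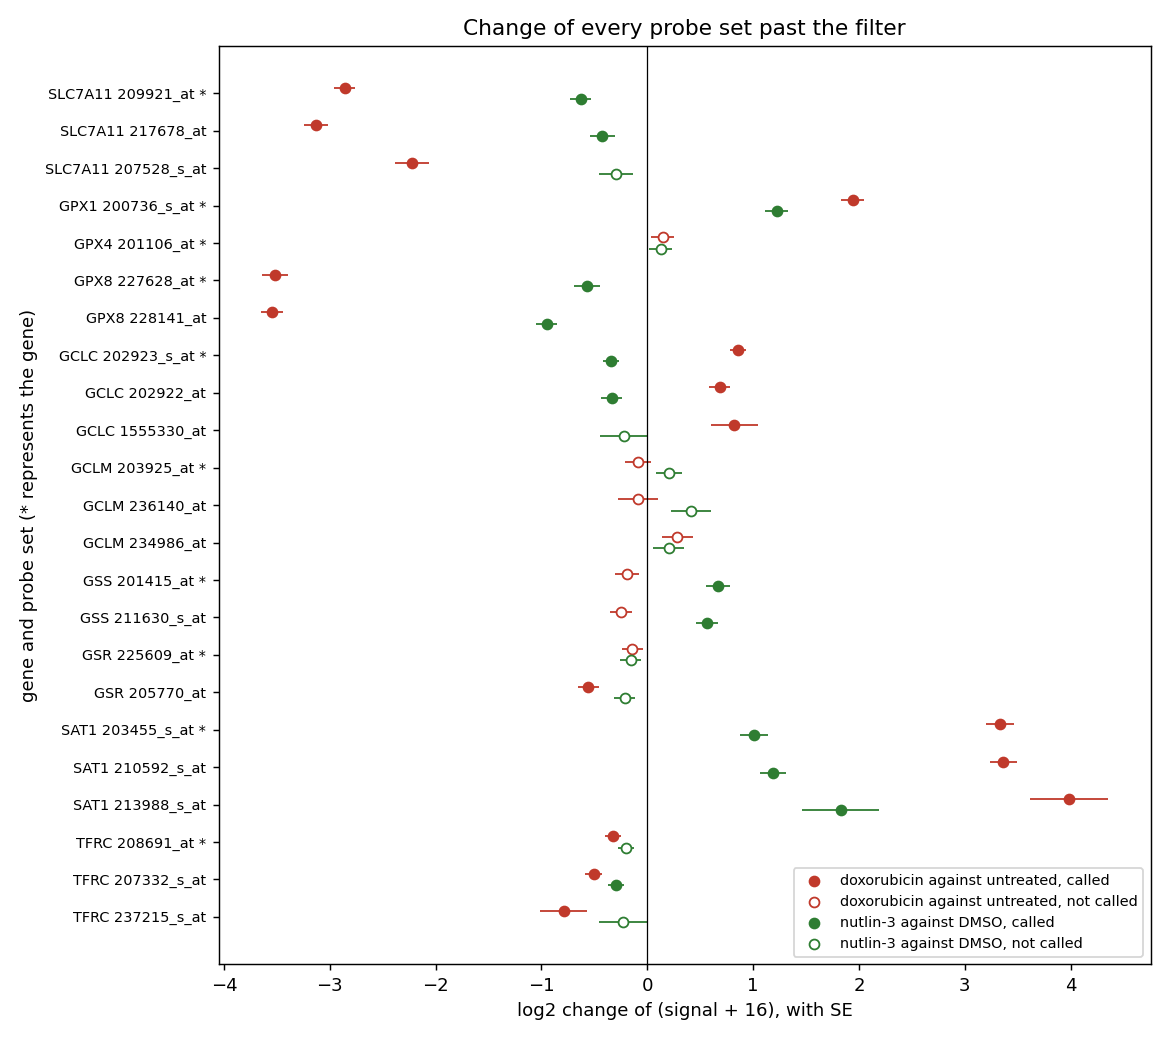
Change in log2(signal + 16), with its SE, of each of the 23 probe sets past the filter, for doxorubicin against untreated and nutlin-3 against DMSO. Filled points were called in the fit over all probe sets, and an asterisk marks the probe set that represents the gene. All probe sets of SLC7A11 and GPX8 lie left of 0 and all of SAT1 right of 0 with both agents, and those of GCLC lie on opposite sides.

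Over the 23 probe sets past the filter, 7 were called higher and 9 lower with doxorubicin, beside 23.4% and 23.6% of all 32768 probe sets. With nutlin-3, 6 were called higher and 7 lower, beside 8.33% and 9.49%. For the difference of the responses, 7 were higher and 7 lower, beside 15.3% and 14.8%. Probe sets of one gene share their transcript and are not independent. The probe set 208691_at of TFRC was not called with nutlin-3 in this fit (adjusted p = 0.067), since p-values were adjusted over more features.

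Between the agents, 3 genes had a higher change with doxorubicin than with nutlin-3, GPX1, GCLC and SAT1, beside 21.8% of all genes. In 3 genes it was lower, SLC7A11, GPX8 and GSS, beside 17.7%. SLC7A11, GPX8, GPX1 and SAT1 went in the same direction with both agents and further with doxorubicin. GCLC went in opposite directions against each agent's own control, where the fall with nutlin-3 was taken from DMSO arrays that were above the untreated ones, and GSS was called with nutlin-3 alone. For GPX4, GCLM, GSR and TFRC the difference was not called. These comparisons share no control array.

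Doxorubicin array 1 had the lowest ACTB ratio of its group, 2.48, which is still above that of every control array. With it as the sole doxorubicin array, the values, given here with no test, were for SLC7A11 -2.94, for GPX8 -3.78, for SAT1 3.17, for GPX1 1.79, for GCLC 0.93 and for TFRC -0.26. The part of the ratio in these changes was not tested. Against the DMSO arrays, the changes with doxorubicin were -2.82 for SLC7A11, -4.04 for GPX8, 3.01 for SAT1, 1.87 for GPX1, 0.56 for GCLC and -0.39 for TFRC. Both comparisons were added after the data were seen.

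Some genes differed between the control groups. DMSO arrays were higher than untreated arrays for GPX8 (0.52), GCLC (0.30) and GSR (0.31, SE 0.10, adjusted p = 0.0496), and no gene was called lower by limma. That is 3 of 10 higher, beside 8.14% of all genes, and 0 lower, beside 5.98%, with 5 higher and 0 lower at an unadjusted p under 0.05. The median change of the 10 genes was 0.18, against 0.02 for all genes. The call of GSR was lost in 16 of 23 alternatives, 10 of which leave out 1 array (adjusted p from 0.051 without doxorubicin array 2 to 0.21 without untreated array 1). That of GCLC was lost in 3, without DMSO array 3 (0.28, adjusted p = 0.058), on 202922_at (0.09) and when its probe sets were averaged (0.24, adjusted p = 0.10). GPX4 gained a call, at 0.40, without DMSO array 1, and SAT1 one, at 0.43, without untreated array 2. Of the probe sets, 3 were called higher and 0 lower, beside 5.61% and 7.84%.

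Over the 12 arrays, the levels of some of these genes moved together. SLC7A11 and GPX8 correlated at a Pearson r of 0.975, and GPX1 and SAT1 at 0.940. SLC7A11 and SAT1 ran against each other at -0.972, and GPX1 and TFRC at -0.929. The arrays fall into 4 groups of 3, so these values mostly describe the group means. Among all genes tested, the most like SLC7A11 in pattern were PPP1R9A (0.998), OCLN (0.995) and ANXA10 (0.993). Those most like GPX8 were HNRNPA2B1 (0.996), TRIM16 (0.993) and RAB30 (0.993). EPHA2 (0.993), MORC4 (0.992) and SPHK1 (0.991) were nearest to SAT1, and TGFBR3 (0.970), AGPAT4 (0.966) and DCBLD1 (0.964) to TFRC. The genes near SLC7A11 spanned changes of -2.36 to -3.46 with doxorubicin and -0.45 to -0.78 with nutlin-3.

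A wider list of 115 genes of the same pathways, without the 10, was set beside them, and 101 were tested. With doxorubicin 30 were higher and 36 lower, beside 30.1% and 25.6% of all genes. With nutlin-3 18 were higher and 18 lower, beside 12.5% and 13.9%. With each array centred on its median, the counts became 18 and 41 with doxorubicin, where 2733 and 4389 of all 13673 genes were called, and 10 and 13 with nutlin-3, where 1163 and 1620 were. The medians were -0.03 and 0.06. The same shares are the background of each list within it, and no count of these short lists is read as a shift of the list. Of the 14 genes not tested, ANPEP, GGT5, GPX2, GPX5, ALOX12, ALOX12B, ALOX15 and ALOX15B were under the filter, and GPX6, GLS2, FDXR, MBOAT2, FTH1 and IREB2 had no probe set of their own here.

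Of 11 genes of cystine uptake, glutathione synthesis and breakdown, 2 were higher and 2 lower with doxorubicin (median -0.16), and 0 were higher and 2 lower with nutlin-3 (median -0.23, with 0 higher and 4 lower by limma at an unadjusted p under 0.05). LAP3, a leucine aminopeptidase, rose by 0.91 with doxorubicin. CBS, which makes cystathionine on the way from homocysteine to cysteine, fell by 1.19 (adjusted p = 2.1e-06), and CHAC1, which degrades glutathione, fell by 0.98 (adjusted p = 9.3e-06). GGT7, a gamma-glutamyltransferase relative, was called at 0.55 but gave -0.33 with the mean of its probe sets, and 0.22, not called, against the DMSO arrays. CTH, which releases cysteine from cystathionine, changed by -0.59 with nutlin-3 (adjusted p = 0.012), a call kept in 20 of 23 alternatives. With doxorubicin CTH was not called, at -0.24 (adjusted p = 0.23), but was at -0.52 and called against the DMSO arrays.

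Of 8 further glutathione peroxidases and glutaredoxins, 3 were higher and 4 lower with doxorubicin (median -0.14), and 3 higher and 2 lower with nutlin-3 (median 0.17). GPX3, the secreted peroxidase, rose from 457 ± 39.9 to 1441 ± 53.5 with doxorubicin, a change of 1.63 (adjusted p = 6.2e-10), or 1.04 against the DMSO arrays. GLRX, the cytosolic glutaredoxin that removes glutathione from proteins, rose from 4407 ± 310.4 to 12414 ± 941 with nutlin-3, a change of 1.49 (adjusted p = 6.1e-08). With doxorubicin GLRX was at 0.21 (adjusted p = 0.14), leaving out doxorubicin array 1 gave 0.38 (adjusted p = 0.0032), and the responses differed by -1.28 (adjusted p = 1.4e-05). TXNDC12, a thioredoxin-like protein of the endoplasmic reticulum, fell by 0.94 with doxorubicin and by 0.72 with nutlin-3.

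Of 18 glutathione transferases, 7 were higher and 7 lower with doxorubicin (median 0.05), and 4 higher and 3 lower with nutlin-3 (median 0.14). GSTA4, which conjugates the lipid peroxidation product 4-hydroxynonenal, fell with doxorubicin from 1834 ± 79.1 to 401 ± 32.3, a change of -2.15 (adjusted p = 9.0e-12). GSTO2 fell by 1.19 (-0.78 with the mean of its probe sets), and GSTP1 and MGST2 rose by 1.15 and 0.98. With nutlin-3, GSTO1 rose by 0.54 and GSTCD fell by 0.87, and GSTP1 and MGST2 were also called higher, at 0.36 and 0.38. With doxorubicin GSTO1 was also called higher, at 0.29. GSTCD was called higher there, at 0.29, but was at -0.0088 with the mean of its probe sets.

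Selenocysteine is the residue at the active site of GPX1 and GPX4. Of 9 genes listed for its synthesis and insertion, 3 were higher and 2 lower with doxorubicin (median 0.14). With nutlin-3, 3 were higher and 1 lower (median 0.15). SEPHS1 fell by 0.93 with doxorubicin and by 0.52 with nutlin-3, where a probe set free of the suffixes _x_at and _s_at gave -0.83. SEPHS2 rose by 0.38 with doxorubicin and by 0.34 with nutlin-3, both called. SECISBP2L rose by 0.73 with doxorubicin, or 0.32 against the DMSO arrays, and SARS1, the seryl-tRNA synthetase, rose by 0.71 with nutlin-3. SECISBP2L was also called with nutlin-3, at 0.35. SARS1 was also called with doxorubicin, at 0.38, or 0.09 in the alternative with its smallest change.

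Of 11 genes known to drive lipid peroxidation or ferroptosis, 4 were higher, beside 30.1% of all genes, and 0 lower with doxorubicin (median 0.43, with 5 higher and 1 lower by limma at an unadjusted p under 0.05), and 2 higher and 2 lower with nutlin-3 (median -0.0040). ALOX5, the lipoxygenase of leukotriene synthesis, rose with doxorubicin from 916 ± 71.1 to 9558 ± 216, a change of 3.36 (adjusted p = 2.9e-14). With nutlin-3 it rose from 1068 ± 35.3 to 5453 ± 509, a change of 2.33 (adjusted p = 1.5e-11), and the responses differed by 1.03 (adjusted p = 5.4e-06). With the mean of its probe sets the changes were smaller, at 2.11 and 1.52, both called. ALOX5 is expressed in leukocytes. Of the leukocyte markers, LAPTM5 went from 85.1 to 509 with doxorubicin and from 60.8 to 258 with nutlin-3, both called. CD3E went from 54.4 to 83.7 and from 48.6 to 57.9, neither called, and PTPRC and CD14 were under the filter. The part of these markers in the change of ALOX5 was not tested. NCOA4, the receptor for autophagy of ferritin, rose by 0.77 with doxorubicin and by 0.22 with nutlin-3, both called. NOX4, a source of hydrogen peroxide, fell by 1.33 with nutlin-3 (adjusted p = 8.4e-07), and with doxorubicin was at -0.06, or at -0.49 and called against the DMSO arrays (adjusted p = 0.0043).

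Of 15 further suppressors of ferroptosis, 3 were higher and 8 lower with doxorubicin (median -0.34), and 1 higher and 4 lower with nutlin-3 (median 0.02). GCH1, the first enzyme of tetrahydrobiopterin synthesis, rose with doxorubicin from 629 ± 88.2 to 6257 ± 386, a change of 3.29 (adjusted p = 4.1e-13). With nutlin-3 it was at 0.17 (adjusted p = 0.28), and the responses differed by 3.12 (SE 0.15, adjusted p = 4.2e-10). TIGAR, a p53 target that favours NADPH production, rose by 2.44 and 1.73. SCD, which makes monounsaturated fatty acids, fell with doxorubicin from 5661 ± 270 to 1074 ± 72.2, a change of -2.38, and by 1.11 with nutlin-3 (-0.69 with the mean of its probe sets). MBOAT1, a phospholipid acyltransferase, changed by -0.89 and -1.18, both called. These genes were named for the size of their change, so they do not give the balance of the list.

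Of 16 genes of iron handling besides TFRC, 4 were higher and 6 lower with doxorubicin (median -0.06), and 3 higher and 3 lower with nutlin-3 (median -0.03). HMOX1, which frees iron from heme, rose by 1.34 and 0.66. SLC39A8, a metal importer, rose by 0.99 with doxorubicin and fell by 0.60 with nutlin-3, a difference of 1.59 (adjusted p = 8.0e-07), and DMSO arrays were above untreated ones by 0.51, so that its rise with doxorubicin was 0.48 against them. SLC39A14, a second importer, fell by 0.99 with doxorubicin. SLC11A2, which carries ferrous iron out of endosomes, fell by 1.11 there, but its probe set free of the suffixes _x_at and _s_at gave -0.30 and no call (adjusted p = 0.43).

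Of 13 genes of polyamine metabolism besides SAT1, 4 were higher and 7 lower with doxorubicin (median -0.24), and 2 higher and 1 lower with nutlin-3 (median 0.06). ARG2, the mitochondrial arginase that yields ornithine, rose with doxorubicin from 927 ± 92.9 to 3782 ± 270.2, a change of 2.01 (adjusted p = 6.2e-11), and was at 0.06 with nutlin-3. On its probe set free of the suffixes _x_at and _s_at the rise was 0.86, also called. ODC1, which makes putrescine from ornithine, rose by 0.60 with doxorubicin and was at -0.02 with nutlin-3. The synthases SMS and SRM, which make spermine and spermidine, changed by -1.06 and -0.77 with doxorubicin, both called. SAT2, a relative of SAT1, fell by 0.46 with doxorubicin and rose by 0.77 with nutlin-3 (difference -1.23, adjusted p = 2.5e-06). ATP13A3, a polyamine transporter, was called at 0.70 with doxorubicin but gave -0.51 against the DMSO arrays.

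**Figure D3:**
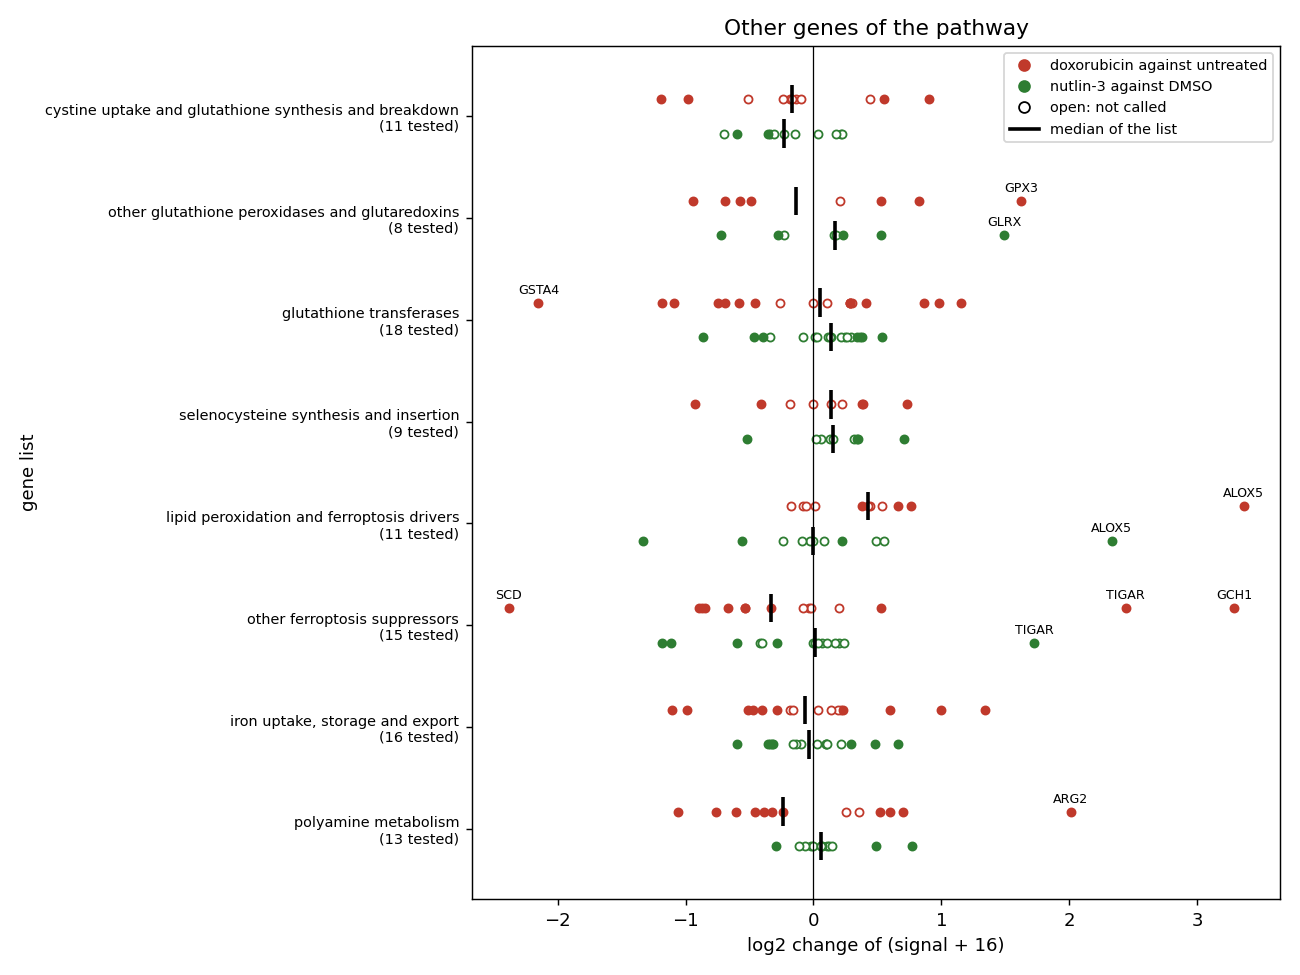
Change in log2(signal + 16) of the other pathway genes, by list, for doxorubicin against untreated and nutlin-3 against DMSO. Filled points were called, open points were not, and the vertical bar is the list's median. GCH1 and ALOX5 stand farthest right at 3.29 and 3.36 with doxorubicin, and SCD and GSTA4 farthest left at -2.38 and -2.15.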

How the data were processed

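Transcripts had been measured in 12 arrays of U2OS cells, with 4 groups of 3 taken from the titles. The authors deposited 1 linear signal intensity per probe set, made with MAS5 per the submitters' processing notes. Version, settings and detection calls are not given in the sources used here. The mean after trimming 2% was 500.06 to 500.07 on every array, so arrays share a scale. Array medians were 79.6 to 113.6.

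Signals were turned into log2(signal + 16), which understates changes of dim genes. Control probe sets (62 of 54675) were left out, as were those whose mean log2 value was under the 40th percentile. That percentile is 49.3 when turned back into a signal. The platform annotation gave 1 symbol for 41091 probe sets, several for 1801 and did not list 11777. A gene was its brightest probe set with 1 symbol. limma 3.58.1 in R 4.3.3 (lmFit, eBayes with trend, 4 group means, no block) tested 13673 genes, and in a second fit 32768 probe sets, 2-sided, with Benjamini-Hochberg adjustment. The script was tested on simulated data.

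The genes, lists and rules were chosen with earlier results of these data known. The wider lists gave, per list and agent, up to 2 called rises and 2 falls to name. Some whose call was lost without 1 array are only counted. The called rises of PRDX6 with doxorubicin and of GLRX3, SMOX and SLC25A37 with nutlin-3 are also only counted. Those calls held in every alternative run with at least 2 arrays in each group. SLC3A2, ODC1 and SEPHS2 are outside that rule and were named after their values were seen. Alternatives covered scaling, pseudocounts of 1 and 64, filters, probe set choice, trend, fits of fewer arrays, the replicate number as a block and each array left out. The planned comparison of proteins was not made. Precision is limited by the number of arrays.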

Additional observations from a re-analysis of the deposited data

Results flagged for a closer look

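In 6 of the 10 genes the response to doxorubicin differed from the response to nutlin-3 by limma's test of the difference itself, 3 higher and 3 lower, beside 21.8% and 17.7% of all genes. On the log2(signal + 16) scale, the change with doxorubicin minus that with nutlin-3 was -2.23 for SLC7A11, -2.95 for GPX8 and -0.86 for GSS, and 0.72 for GPX1, 1.20 for GCLC and 2.32 for SAT1. GCLC was higher with doxorubicin than untreated and lower with nutlin-3 than in DMSO, but DMSO arrays were above untreated ones by 0.30 and the nutlin-3 arrays lay at the untreated level. Each agent was given at 1 dose, and the doxorubicin arrays had the higher ACTB 3' to 5' ratio, whose part in these differences was not tested.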

How the results depend on the processing

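The calls of SLC7A11, GPX1, GPX8, GCLC and SAT1 with both agents, of TFRC with doxorubicin and of GSS with nutlin-3 were kept in every alternative run with at least 2 arrays in each group, as were the 6 called differences between agents. Over all alternatives of the 10 genes, 879 values kept direction and side of the threshold, 33 lost a call, 10 gained one and 28 changed sign, all of these from changes not called as reported. MAS5 background and the number of arrays limit what dim probe sets show, and the causes of the shifts below were not tested.

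With the mean of all probe sets, 5 genes were called lower with doxorubicin, where 3468 of all 13673 genes were. In that run 1 was called higher in DMSO, where 821 of all genes were. Probe sets other than _x_at and _s_at also gave 1 higher in DMSO, where 1010 of all genes were called. Leaving out 1 array gave 1 to 3 higher in DMSO, where 591 to 1192 of all genes were. Centring each array on its median left 18, 10 and 11 wider pathway genes higher for doxorubicin, nutlin-3 and their difference. In that setting 2733, 1163 and 1780 of all 13673 genes were higher, against 4112, 1713 and 2982 in the reported fit. Leaving out 1 array gave 4 to 7 probe sets lower with nutlin-3 (4 without DMSO array 1). Of all 32768 probe sets, 2320 to 3303 were lower in those runs (2320 without DMSO array 1). Probe sets lower in DMSO than untreated, 0 in the reported fit, were 1 with the 60th percentile filter, where 2318 of all 21845 were lower. They were 3 with only those groups fitted and 2 with the replicate block, where 2982 and 2924 of all 32768 were. Without 1 array they were 0 to 2, where 1456 to 2853 of all probe sets were lower. No such count is read as a shift of the pathway genes.

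Whether replicate numbers pair the samples is not stated. Deviations of same-numbered arrays correlated at -0.09 to -0.02 for untreated and doxorubicin and at -0.01 to 0.17 for DMSO and nutlin-3. For untreated and DMSO they correlated at 0.01 to 0.10. With 3 arrays a group these values cannot settle whether samples were paired. Over all genes the replicate block gave more calls in each comparison, such as 1876 higher and 2020 lower with nutlin-3, against 1713 and 1900. With the replicate block the 10 genes had the same counts of calls, 3 higher and 3 lower with doxorubicin and 3 and 4 with nutlin-3.

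Signs changed as follows. Median centring gave 0.082 for SLC7A11 and 0.071 for GCLM in DMSO, -0.035 for GPX4 with doxorubicin, and -0.14 (GPX4) and -0.14 (GSR) for the difference. The mean of probe sets gave 0.036 for GCLM and -0.33 for GGT7 with doxorubicin, -0.0088 for GSTCD there, -0.16 for GSR in the difference, -0.18 for TFRC in DMSO, and -0.038 for GSTO2 and 0.021 for SLC39A14 with nutlin-3. Quantile normalization gave 0.10 for TFRC in the difference, and probe sets other than _x_at and _s_at 0.38 for GLRX3 with doxorubicin. Doxorubicin against the DMSO arrays gave -0.14 for GPX4, 0.35 for SECISBP2, 0.44 for POR, 0.16 for SLC25A37 and -0.51 for ATP13A3, and doxorubicin array 1 alone -0.13 for GLRX and 0.016 for NOX4. Leaving out 1 array, ranges were -0.11 to 0.047 (SLC7A11), -0.018 to 0.17 (GPX1) and -0.23 to 0.070 (GCLM) in DMSO, -0.065 to 0.14 (GPX4) and -0.078 to 0.10 (GSR) for the difference, -0.27 to 0.031 (GCLM) and -0.19 to 0.091 (POR) with doxorubicin, and -0.016 to 0.12 (ARG2), -0.10 to 0.042 (ODC1) and -0.0028 to 0.19 (SRM) with nutlin-3.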
